A study of Macaca mulatta with 23 samples.

Results

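The JAG1 locus was examined in DNA methylation profiles of the central amygdala nucleus from 23 young rhesus monkeys (Macaca mulatta), made by reduced representation bisulfite sequencing. In this assay MspI cuts the DNA into CpG-rich fragments, and bisulfite separates methylated from unmethylated cytosines. Members were all positions of the deposited table between 10615000 and 10660000 on chromosome 20 of the human build hg19, a window around JAG1, which runs on the minus strand from a start near 10654700. The window held 85 of the 444312 positions of the table. Of these, 79 lay within 2000 bp of the gene start and are called the promoter zone, 6 lay farther into the gene, and 0 lay farther upstream. Each monkey gave 1 library, from the right hemisphere in 12 monkeys aged 1.1 to 1.64 years and from the left in 11 monkeys aged 1.1 to 2.13 years. No treatment or genotype is given in the labels. Each monkey has a score of anxious temperament, a trait of young primates built from behaviour and stress physiology, which ran from -1.48 to 0.89 in monkeys sampled on the right and from -0.83 to 1.43 in those sampled on the left. The study treats this score as a continuous trait with age as the covariate. The tissue label could not be checked against cell type markers in a table without gene names.

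JAG1 encodes Jagged1, a ligand anchored in the cell membrane. It binds Notch receptors on a neighbouring cell, which are then cleaved, and the freed intracellular part moves to the nucleus and switches on target genes such as those of the HES and HEY families. In the developing brain this signal keeps progenitor cells from differentiating too early, and in the mature brain Notch signalling has been tied to astrocyte state and synaptic plasticity. Promoters that lie in CpG islands are usually free of methylation whether or not the gene is active, and methylation inside gene bodies is usually higher. JAG1 was chosen by its measured relation to the temperament score in these same monkeys. Values that involve the score are therefore descriptions. Main counts of positions past a threshold for the score are given beside the share of the whole table. Under some alternative settings that share was not taken. No p of a JAG1 position or run is given for the score.

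The 85 positions fell into 4 runs, each a stretch with gaps of at most 200 bp. All 4 lie downstream of the start, on the transcribed side. The proximal promoter run holds 20 positions from 10654282 to 10654583, which is 117 to 418 bp into the gene. The middle promoter run holds 33 positions from 10653349 to 10653641, at 1059 to 1351 bp. The distal promoter run holds 26 positions from 10652896 to 10653036, at 1664 to 1804 bp. The gene body run holds 6 positions from 10620297 to 10620507, at 34193 to 34403 bp from the start. The macaque gene is 35996 bp long in the RefSeq table of assembly T2T-MMU8v2.0, another genome build, and the run lies within that distance of the start. Exon and intron borders of hg19 were not used here. Outside the window the nearest positions of the table were 10506723 on one side, with a mean level of 64.2%, and 10774510 on the other, with 33.8%. Inside it the outermost positions averaged 26.7% at the gene body end and 2.73% at the promoter end. The nearest positions outside lie 108277 and 114510 bp beyond the window's edges, so its exact limits did not decide which positions were included.

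Library quality touches several values below. Read counts are not in the table and the depth behind each level is unknown. All 85 positions had a value in 15 monkeys. Left 3 lacked 32.9% of the locus, all 6 gene body positions included, and left 4 lacked 16.5% and had a single gene body position. Right 4 had values at 2 gene body positions. Of the whole table, left 3 lacked 49.7%, right 9 21.2%, left 4 18.3%, right 4 15.7%, right 12 14.2% and right 3 9.14%. The median over libraries was 2.83%. The 9 positions of the middle run from 10653561 to 10653641 had values in 18 monkeys. As a measure of each library, the mean level was taken over the 105192 positions elsewhere in the table that had values in every monkey and averaged under 5%. It split the libraries at a gap: 6 libraries (left 7, right 7, right 8, left 9, right 9 and right 10) stood between 1.75% and 2.49%, and the other 17 between 0.826% and 1.3%. What sets the 6 apart was not tested.

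The proximal and middle promoter runs were almost free of methylation, and the level was higher in the distal run and in the gene body run. No position of the table lies between the distal run and the gene body run. The promoter zone averaged 2.06% ± 0.774 (SD, n = 23), and 55 of its 79 positions had a mean under 2%. The gene body run averaged 18.7% ± 6.02 (SD, n = 22). Among the promoter runs the distal one stood highest, at 3.87% ± 1.8 (SD, n = 23). The proximal run averaged 1.28% ± 0.531 and the middle run 1.07% ± 0.685 (SD, n = 23 each). The gene body run exceeded the distal run in 22 of 22 monkeys, by 14.7 ± 6.52 points (SD), and the distal run exceeded the proximal one in 23 of 23, by 2.59 ± 1.7 points. Both differences had p = 2e-05 in a 2-sided paired permutation test, the smallest that 100000 resamples can give, and an adjusted p of 3e-05 over 3 comparisons. The proximal run exceeded the middle run in 15 of 23 monkeys, by 0.203 ± 0.485 points (permutation p = 0.0592), which leaves their order undecided. The runs were put in order by these same means before neighbours in the order were compared.

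**Figure D1:**
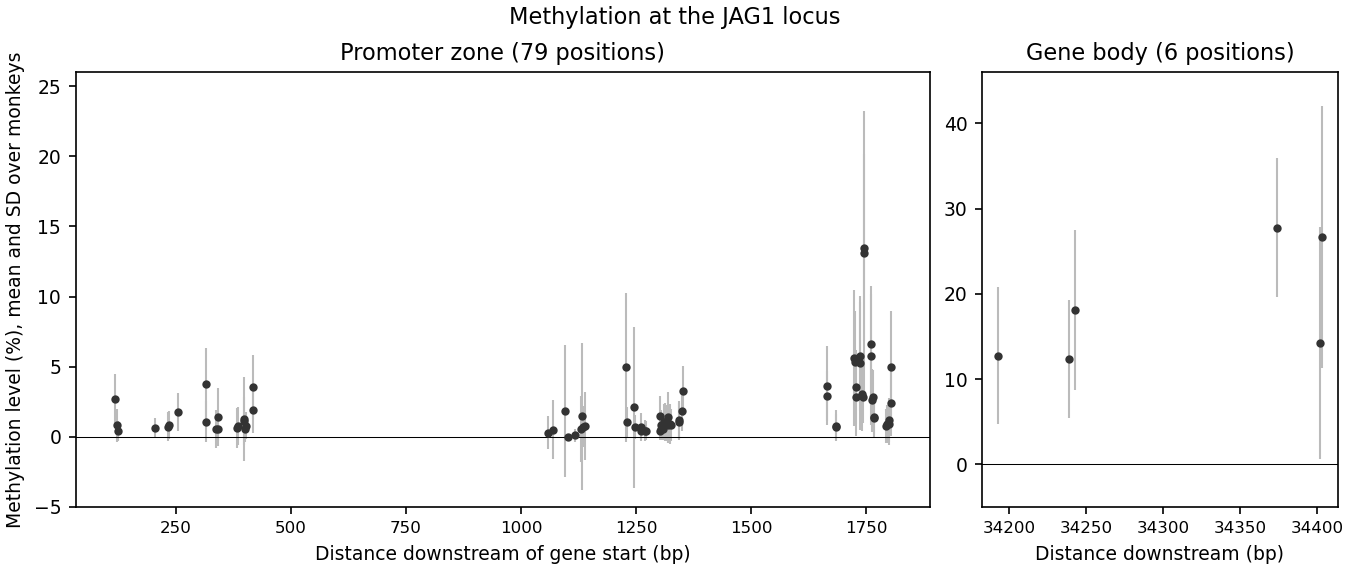
Mean methylation level in percent of each JAG1 position over monkeys, with bars of 1 SD, against the distance in bp downstream of the gene start, for the 79 promoter zone positions and, on its own vertical scale, the 6 gene body positions. Levels stay under 5% near the start, reach 13.5% within the distal promoter run and lie between 12.4% and 27.8% in the gene body.

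The JAG1 runs were next set against runs of like size in the rest of the table. Of 4434 runs elsewhere with 20 to 40 positions, 33.5% had a lower mean level than the proximal run, 16.9% a lower one than the middle run and 57.2% a lower one than the distal run. The median of those runs was 2.07%. Of 13930 runs with 3 to 9 positions, 20.2% had a lower mean than the gene body run, and their median was 50.7%. Spread between monkeys was compared with runs of the same size class whose mean lay within 50% of the JAG1 run's own. The SD of the distal run, 1.8 points, was above that of 82.4% of 511 such runs, whose median SD was 1.14. For the proximal run the share was 9.91% of 2149 runs, for the middle run 51.1% of 1981 and for the gene body run 57.7% of 1855. These are descriptions without a test.

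Within the distal run the level varied between neighbouring CpGs, and the means over monkeys were alike on both strands of a CpG. A CpG is listed as 2 positions 1 base apart where both strands were read, and the promoter zone held 31 such pairs, 13 of them in the distal run. The pair at 10652955 and 10652956 stood highest, at 13.5% ± 6.67 and 13.1% ± 10.1 (SD, n = 23 each). The next pair, at 10652958 and 10652959, averaged 2.87% and 3.04%. At 10653016 and 10653017 the means were 0.696% and 0.773%. The means of the 2 positions of a pair differed by a median of 0.308 points over the 13 pairs of the distal run, with r = 0.973 across those pairs, which share libraries and fragments. Single monkeys differed more. At the highest pair the second position minus the first had an SD of 9.62 points around a mean of -0.391 (n = 23), and right 9 stood at 0 on the first and 35% on the second. Over the whole run right 9 averaged 0.0769% on the 13 lower positions and 5.46% on the 13 upper ones, and left 4 averaged 2.77% and 0.231%. Over all 84500 pairs of the table in which the smaller of the 2 means was under 20% the median difference was 0.696 points.

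Means of paired positions differed most at some of the first and last pairs listed in a run. The first pair of the distal run, 10652896 and 10652897, averaged 5% and 2.41%. At the first pair of the middle run, 10653349 and 10653350, the levels were 3.26% and 1.83%. The first pair of the proximal run, 10654282 and 10654283, gave 3.52% and 1.91%. In each of the 3 the first position was the higher one. At the last pair listed in each run the second position was the higher one. The last pair of the distal run, 10653035 and 10653036, averaged 2.91% and 3.64%, a gap no larger than at some pairs inside that run. In the middle run the last of the pairs, which 9 unpaired positions follow, had 1.04% at 10653471 and 4.96% at 10653472. This was the largest gap of the 31 pairs, at 3.91 points. It rests in part on right 9, at 0 on the first and 28% on the second, where no other monkey exceeded 6%. In the proximal run the last of the pairs, 10654384 and 10654385, averaged 1.09% and 3.78%, and unpaired positions follow it as well. These pairs were picked out after their values were seen.

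**Figure D2:**
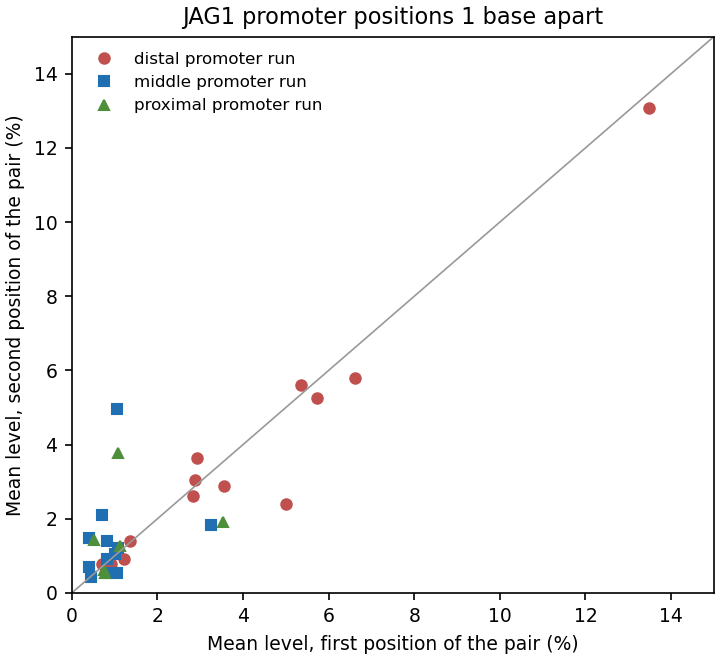
Mean level in percent of the second against the first position of each of the 31 promoter zone pairs that lie 1 base apart, by run, with the line of equality. Pairs of the distal run follow the line up to 13.5% and 13.1%, and the pair farthest from it, in the middle run, differs by 3.91 points. In that pair right 9 stood at 28% on the second position, where no other monkey exceeded 6%.

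The gene body run holds 1 such pair, whose positions lay farther apart. At 10620297 the level averaged 26.7% ± 15.4 (SD, n = 19) and at its partner 10620298 14.2% ± 13.6 (SD, n = 22). Over the 19 monkeys with both, the second position was lower by 10.9 points on average, with an SD of the difference of 25.2. Right 4 stood at 0 on the first and 67% on the second, and right 6 at 62% and 12%. Right 4 had no value at the other 4 gene body positions, so its run mean of 33.5%, the highest of all monkeys, rests on this pair alone. The highest mean of the run was at 10620326, with 27.8% ± 8.16 (SD, n = 20) and a range of 13% to 46%. At 10620457 the level averaged 18.1% ± 9.37 and at 10620507 12.8% ± 8.02 (SD, n = 20 each). In right samples 10620507 stood at 0 at the lowest, 10% at the median and 16% at the highest, and in left samples at 3%, 15% and 30%. The groups overlapped there, with an adjusted difference of right minus left of -6.21 ± 3.32 points (SE) and a limma Benjamini-Hochberg adjusted p of 0.93.

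The distal promoter run, which lies 1664 to 1804 bp into the gene, had the steepest positive slope on the temperament score among the 4 runs. Its level was 8.62% in right 12, with a score of 0.89, 7.31% in right 3, with 0.56, and 6.19% in left 6, with 0.92. These were the 3 highest levels of the run. Left 11, which has the highest score of all, 1.43, stood at 4.81%. At the other end of the scale, right 4, with a score of -1.48, stood at 3.23% and right 2, with -1.05, at 2.31%. The lowest levels were those of left 3 at 1.35%, with a score of 0.29, and left 4 at 1.5%, with -0.44. Left 3, left 4, right 4, right 12 and right 3 lack more of the table than most libraries, while left 6 and left 11 do not. High and low scores overlapped in level. The slope adjusted for age was 1.19 ± 0.476 points per score unit (SE, n = 23). It was 0.906 without right 12 and 0.733 ± 0.373 without right 3 and right 12 together. Slopes stayed above 0 with each of the 23 monkeys left out in turn, as they did for the middle and proximal runs. Since the score took part in the choice of the gene, this is a description only. Among the monkeys whose identifiers start with r the slope was 1.1 ± 1.04 (SE, n = 12) and among those starting with B 1.31 ± 0.598 (SE, n = 11). The labels do not explain the letter. With the level at low positions as a covariate the slope was 1.17 ± 0.485, and without the 6 libraries that stood higher there it was 1.23 ± 0.544.

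**Figure D3:**
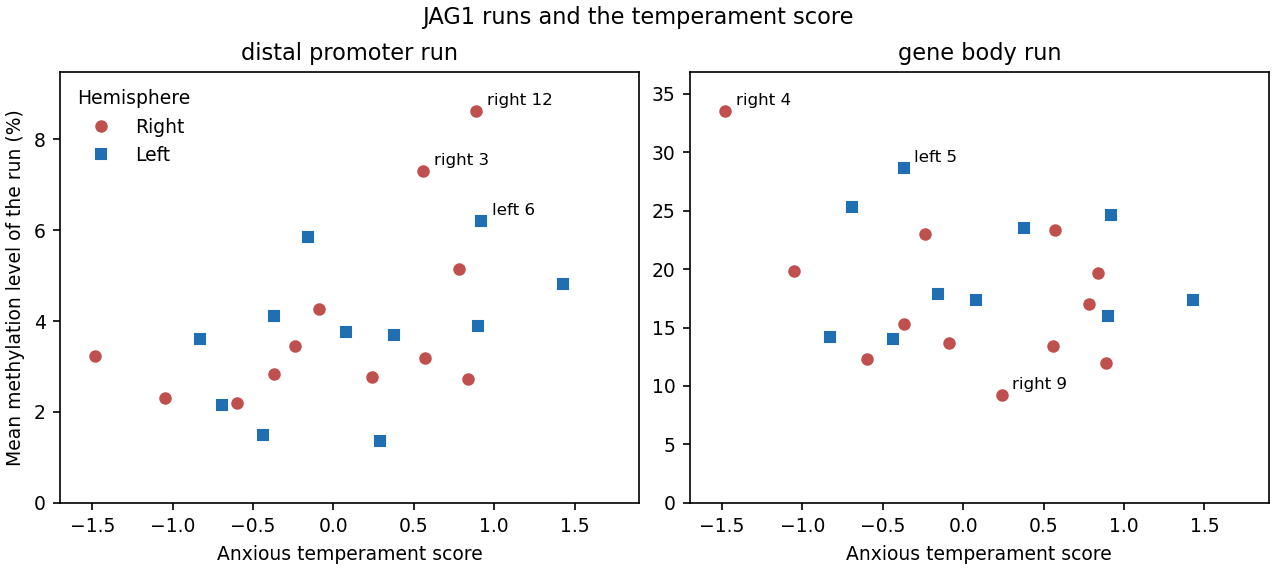
Mean level in percent of the distal promoter run and of the gene body run in each monkey against its anxious temperament score, by hemisphere, with the monkeys at the extremes of each run named. The 3 highest levels of the distal run, 8.62%, 7.31% and 6.19%, belong to monkeys with scores of 0.89, 0.56 and 0.92, and in the gene body run right 4, at 33.5% with a score of -1.48, stands apart.

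Position by position, slopes were above 0 at 24 of its 26 positions, with a median of 1.18 points per score unit. The 2 listed strands gave 0.897 ± 0.595 over the 13 lower positions and 1.49 ± 0.489 over the 13 upper ones (SE, n = 23 each). Neighbouring positions are read from the same fragments and do not count as separate observations. At 10652976 the levels of monkeys sampled on the right were 0 at the lowest, 2.5% at the median and 14% at the highest, and those of monkeys sampled on the left 3%, 5% and 20%, the last in left 3, the library with most missing values. The slope there was 2.96 ± 1.29 points per score unit. At 10652964 the right monkeys had 0, 4.5% and 17% and the left monkeys 0, 3% and 11%. The 17% was right 9, which stood at 0 at the paired position 10652963. The slope at 10652964 was 2.64 ± 1.32. At 10652963 the slope was 2 ± 1.06. The most methylated pair had slopes of 0.579 ± 2 at 10652955 and 4.49 ± 2.91 at 10652956, and whether they differ was not tested.

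In the other runs slopes were smaller relative to their SE. For the middle run it came to 0.113 ± 0.205 points per score unit and for the proximal run to 0.0566 ± 0.158 (SE, n = 23 each). Slopes were above 0 at 22 of 32 positions of the middle run, with a median of 0.101, and at 13 of 20 of the proximal run, with a median of 0.0979. One further position of the middle run, 10653598, was at 0 in all 18 monkeys that had a value. The promoter zone as a whole had a slope of 0.455 ± 0.211 (SE, n = 23). With the zone narrowed to 1000 bp, which leaves the proximal run alone, it was 0.0566. For the gene body run the slope was -2.2 ± 1.73 (SE, n = 22), and it was -0.339 ± 1.74 without right 4. It was -0.65 ± 2.97 in the r series and -0.258 ± 2.41 in the B series. Slopes there were above 0 at 3 of 6 positions, with a median of -0.214. At 10620298 the slope was -6.03 ± 3.8.

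Over the whole locus, slopes were above 0 at 62 of 84 positions. With values in 20 or more monkeys required, as for the table, it was 57 of 75, against 52.2% of the 344933 positions of the table that varied at all. Among positions with a mean under 20% it was 57 of 74, against 55.2% of the table. With the linear model fitted by limma to the 192151 positions that also spanned 10 points or more, the locus had 21 members, 16 of 79 in the promoter zone and 5 of 6 in the gene body. Of the promoter zone positions left out, 9 had values in fewer than 20 monkeys and the rest spanned less than 10 points. Further, 4 members passed it through right 9 alone. At 10653454 and 10653472 right 9 stood at 28%, where no other monkey exceeded 4% and 6%. At 10654302 it stood at 14%, where the others reached 3% at most. At 10652972 it was the lowest, at 0. For the score, 0 locus positions were called at a Benjamini-Hochberg adjusted p under 0.05, as was 0% of the table, and 1 fell under 0.05 unadjusted, against 3.12% of positions in the table. Without the range filter 8 of 75 had one, 7 with slopes above 0, against 2.59%. Of the 21253 runs fitted in the table, 3.2% were under 0.05 unadjusted for the score and 0% after adjustment. Since the score took part in the choice of the gene, nothing is read from these counts.

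Age was tested as the other term of the same model, and no JAG1 position was called for it. Of the 21 positions, 0 were called with limma at an adjusted p under 0.05, against 0.0531% of the table, and 0 were under 0.05 unadjusted, against 4.06%. Among runs, 0 of the 2 JAG1 runs fitted were called, against 0.0565% of the table, and 0 were under 0.05 unadjusted, against 4.81%. The age slope was 4.62 ± 5.61 points per year in the gene body run (SE, n = 22) and -0.179 ± 1.62 in the distal promoter run (SE, n = 23), each with a Benjamini-Hochberg adjusted p of 0.999 in limma. Without left 1, the oldest monkey, the slope was 0.483 in the gene body run and 0.712 in the distal run. In the gene body run it was 50 ± 24.7 in the r series and 2.67 ± 5.73 in the B series (SE). The r monkeys were only 1.18 to 1.45 years old, a span well under a year. The oldest of them was right 4, whose level of 33.5% rests on a single pair of positions. In the distal run the age slope was -0.639 ± 9.28 in the r series and 0.111 ± 1.51 in the B series (SE). The proximal and middle runs ranged over less than 5 points between monkeys and were not among the 21253 runs fitted. In a fit of all 27598 runs with any spread their age slopes were -0.441 ± 0.555 and -0.261 ± 0.692, with a limma adjusted p of 0.998 each. No direction with age is given for any JAG1 run.

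Right and left samples were compared in the same way, with score and age in the model. The distal promoter run stood between 2.19% and 8.62% in right samples, with a median of 3.21%, and between 1.35% and 6.19% in left samples, with a median of 3.77%. The groups overlapped over most of their range. Means were 4.01% ± 2.04 in right samples (SD, n = 12) and 3.72% ± 1.58 in left samples (SD, n = 11), and right exceeded left by 0.445 ± 0.71 points after adjustment (SE, adjusted p = 0.976 in limma). The difference was 0.0666 without right 12, and it was 0.0686 ± 1.24 in the r series and 1.02 ± 0.858 in the B series. For the gene body run the mean was 17.7% ± 6.69 in right samples (SD, n = 12) and 19.9% ± 5.19 in left samples (SD, n = 10), and right minus left came to -2.31 ± 2.49 points (SE, adjusted p = 0.975 in limma). With single monkeys left out it ran from -3.5 to -1.06, and it was -0.612 ± 3.46 in the r series and -3.47 ± 3.3 in the B series. Neither of these 2 runs was under 0.05 unadjusted, against 3.12% of runs in the table. In the middle run right samples averaged 1.23% ± 0.72 and left samples 0.9% ± 0.632. For the proximal run the means were 1.3% ± 0.519 in right and 1.25% ± 0.57 in left samples (SD, n = 12 and 11). In the fit of all 27598 runs these differences were 0.342 ± 0.297 and 0.0381 ± 0.245 points, with limma adjusted p of 0.992 and 0.997. Of the 21 positions, 0 were called, as was 0% of the table, and 1 fell under 0.05 unadjusted, against 3.48%. That position, 10653036, at the end of the distal run nearer the gene start, gave -2.7 ± 1.26 points for right minus left (SE, adjusted p = 0.93 in limma). It was not past the unadjusted threshold on the logit or arcsine scale, without the variance trend, or without right 9 and left 3.

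**Figure D4:**
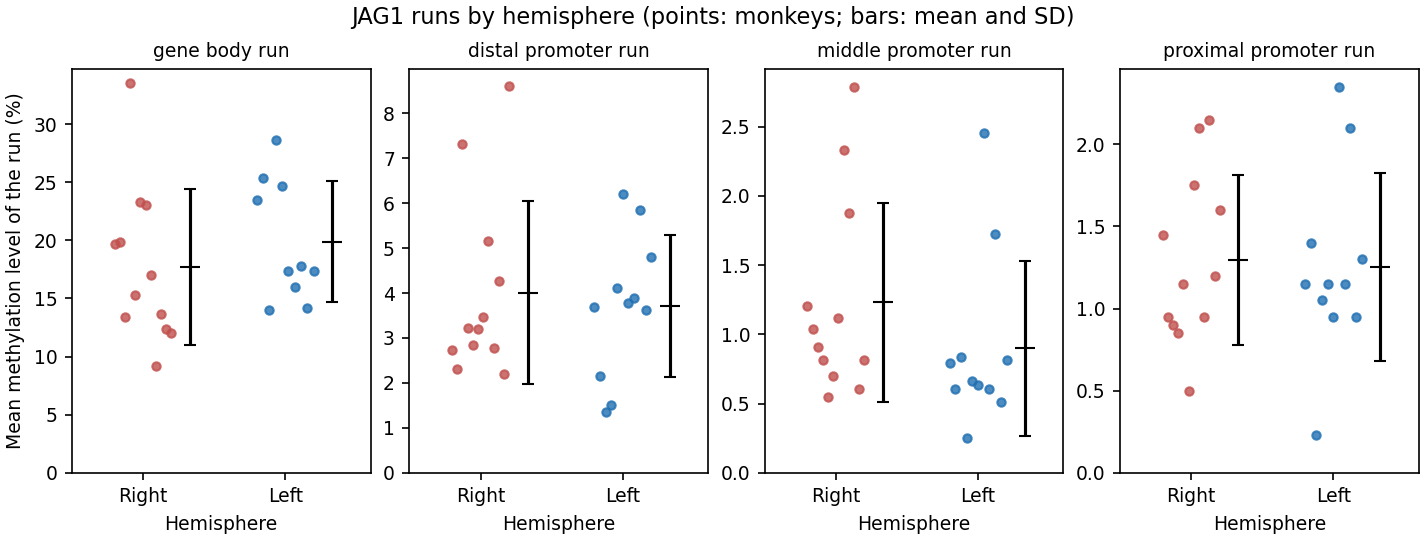
Mean level in percent of each JAG1 run in monkeys sampled on the right (12, left of each panel) and on the left (11, or 10 for the gene body run), 1 point per monkey, with the mean and 1 SD beside the points; each panel has its own scale from 0. The groups overlap in all 4 runs, and right 4 at 33.5% and right 12 at 8.62% are the highest points of the gene body and distal runs.

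The slope on the score was also set against hemisphere. In the distal run the slope of right samples exceeded that of left samples by 0.506 ± 1.03 points per score unit, and in the gene body run the difference was -3.62 ± 3.44 (SE). These differences are descriptions, since the slopes took part in the choice of the gene.

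The 2 least methylated runs stood higher in the libraries with higher levels at low positions. The middle run stood between 1.12% and 2.79%, with a median of 2.11%, in the 6 libraries with higher levels at low positions elsewhere, and between 0.25% and 1.21%, with a median of 0.697%, in the other 17. Among the 6, the level of right 9 rests mainly on 28% at 10653454 and at 10653472. Its other positions in that run stood at 0 or 2%. For the proximal run the range was 0.95% to 2.35%, with a median of 2.1%, in the 6 and 0.231% to 1.6%, with a median of 1.15%, in the 17. The distal run ran from 2.77% to 5.85% in the 6, inside the 1.35% to 8.62% of the 17, with medians of 4.02% and 3.23%. Its 3 highest libraries, right 12, right 3 and left 6, are all among the 17. The gene body run had medians of 17.2% in the 6 and 18.5% in the others.

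Because the libraries form 2 sets, relations were computed within each, 10 in each set and 20 in all. Within the 17, the proximal run followed the level at low positions (Pearson r = 0.769, permutation p = 0.00044, adjusted p = 0.0088). The rank correlation there was 0.58 (permutation p = 0.0167, adjusted p = 0.334), and r was 0.55 without left 3 and right 1, so the relation rests in part on those libraries. The middle run gave r = 0.3 (permutation p = 0.239, adjusted p = 0.655) and rho = 0.239 (permutation p = 0.354, adjusted p = 0.789). The distal run gave r = 0.428 (permutation p = 0.0879, adjusted p = 0.586) and rho = 0.326 (permutation p = 0.202, adjusted p = 0.789). None of the 20 rank correlations and none of the other 19 Pearson correlations passed after adjustment. Among the 17 libraries (16 with the gene body run), r between JAG1 runs went from -0.282 for gene body and proximal to 0.324 for distal and proximal.

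**Figure D5:**
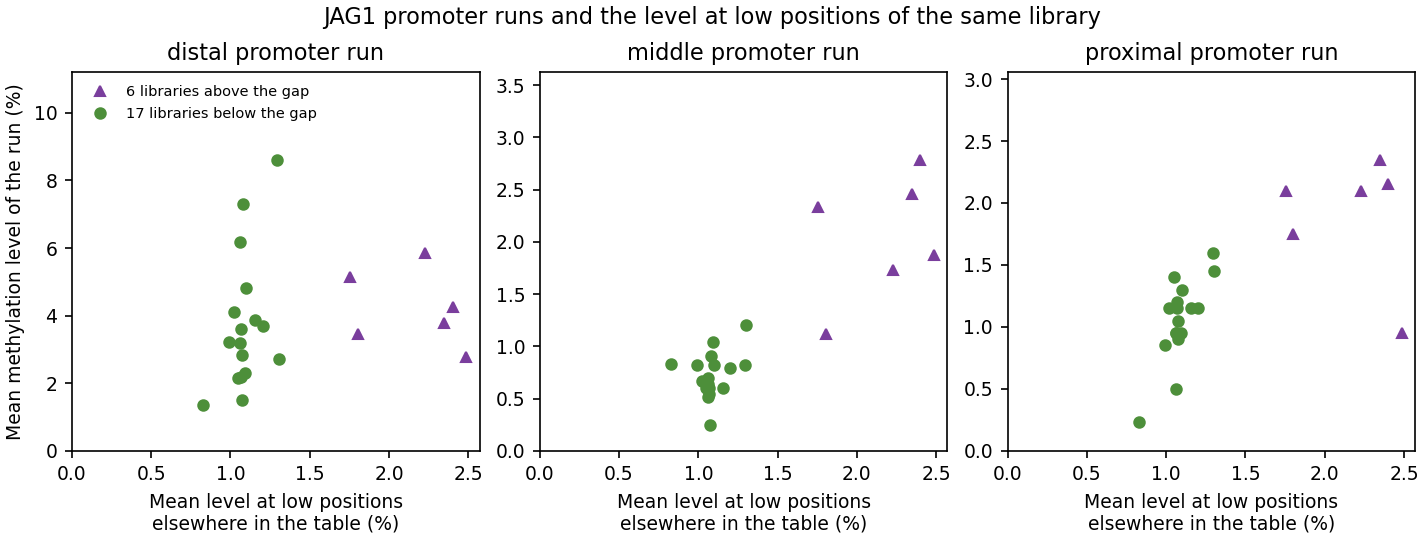
Mean level in percent of each promoter run against the mean level of the same library at 105192 low positions elsewhere, with the 6 libraries above the gap as triangles and the 17 below it as circles. In the middle and proximal runs most triangles lie above the circles, while in the distal run they lie between 2.77% and 5.85%, inside the range of the circles.

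The pattern of the gene body run, the JAG1 run with the largest SD, was compared with 26918 runs elsewhere that shared at least 20 monkeys with it. The closest lies on chromosome 2 between 121683370 and 121683505 and has 9 positions, with r = 0.807 over 20 monkeys and a mean level of 57.2%. Next came 9 positions on chromosome 14 from 104641977 to 104642151, with r = 0.768 over 21 monkeys, and 5 positions on chromosome 18 from 48189288 to 48189538, with r = 0.766 over 22. These are the highest of 26918 values, given as a description over monkeys that share libraries.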

How the data were processed

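Per the labels' protocols, genomic DNA was cut with MspI, end-repaired, ligated to methylated adapters, size-selected and treated with bisulfite before sequencing. Bismark 0.11.1 and the human build hg19 are named in the submitters' processing notes. The authors deposited methylation as a fraction per position and monkey, here multiplied by 100. Coverage filters are not stated in the labels and the table has no read counts, so the precision of a single value is unknown. Macaque reads placed on human coordinates can miss or misread sites that differ between the species.

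Members, zones and the rule for named positions were chosen with earlier results of these data known. The rule takes in each zone the 3 tested positions with the largest score slope relative to its SE, the 3 with the largest SD, any past an adjusted p of 0.05 for age or hemisphere, and the 3 runs elsewhere most correlated with the JAG1 run of largest SD. Other positions were named after their values were seen. Runs needed 3 or more positions, and a run's level was the plain mean of the values a monkey had. limma 3.58.1 (R 4.3.3, empirical Bayes with trend) fitted score and age, with hemisphere added for right minus left, to every position with values in 20 or more monkeys and a span of 10 points, and to every run with a span of 5 points. P-values were adjusted over all of these by the Benjamini-Hochberg method. The fit was also run on simulated data with independent positions and planted score slopes larger than those of the JAG1 runs. That simulation does not cover slopes as small as those of the JAG1 runs or positions that share fragments. Score slopes and their SEs at the locus are from plain least squares. Values per monkey were tested 2-sided by permutation with 100000 resamples, or exactly for 6 libraries, in scipy 1.17.1. Sample numbers within a hemisphere follow accession order. No sequence is shown, and gene borders of hg19 and other Notch pathway genes were not analysed here. Alternatives covered the scale, filters, gaps, zone width, covariates and leaving out monkeys.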

Additional observations from a re-analysis of the deposited data

Results flagged for a closer look

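At 10620298, in the gene body, left 2 stood at 4% where the next lowest of the 10 left samples was 14%. The gap is 0.526 of the range of these samples, above Dixon's critical value for 10 values. In right samples this position ran from 0 to 67%, with a median of 9%, so 4% lies within their range. Left 2 stood at 36% at the paired position 10620297. Chance flags about 1 in 20 groups, and groups of more than 10 samples were not examined this way.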

How the results depend on the processing

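The depth is unknown, and a coverage minimum could not be tried. No paired analysis was possible because hemispheres come from different monkeys and sample numbers follow accession order only. Leaving out right 9 and left 3, right 3 and right 12, or the 6 libraries with higher low levels, adding the level at low positions as a covariate, and fitting runs without a range filter were chosen after seeing the data. Apart from settings that change which positions or monkeys enter, the cause of a changed value was not tested.

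Score slopes with single monkeys left out ran from 0.370 to 0.516 for the promoter zone, 0.906 to 1.39 for the distal run, 0.0405 to 0.172 for the middle run, 0.00771 to 0.0925 for the proximal run and -2.85 to -0.339 for the gene body. With a zone of 1000 bp the promoter slope was 0.0566 and that of all positions beyond it 0.583. With gaps of 500 bp the distal and middle runs merge, with a slope of 0.590. With gaps of 100 bp the gene body run splits, and the slope of its second part was 0.0212. Within the B series the gene body slope was -0.258.

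Age slopes changed sign for the distal run with the identifier series as covariate (0.105), within the B series (0.111) and with single monkeys left out (-0.861 to 0.712), and for the first part of the gene body run with gaps of 100 bp (-3.74). With 1 monkey fewer, the gene body age slope lay between 0.483 and 7.35. Right minus left then ran from -3.50 to -1.06 in the gene body run and from 0.0666 to 0.724 in the distal run. Over the alternatives fitted to the gene body and distal runs, the limma adjusted p for age and hemisphere was 0.941 or more. Under the 8 settings of the fit over positions, 0 locus positions were called for score, age or hemisphere. Positions with an unadjusted p under 0.05 for the score numbered 1 of 21 as reported and 8 of 75 without a range filter. The shares of the table for both are given above. With a span of 20 points there were 0 of 10, and without right 9 and left 3 there were 5 of 13. These settings change which positions enter, and shares of the whole table were not taken for them. Nothing is read from these counts. For age there was 1 of 13 without right 9 and left 3, against 0 of 21 as reported. Shares of the table under alternative settings were not taken for age or hemisphere, and nothing is read from those counts. For hemisphere there were 0 on the logit and arcsine scales, with a span of 20 points, with values in all monkeys, without the variance trend and without right 9 and left 3, against 1.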
